A study of Mus musculus with 4 samples.

Results

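The piRNA, chromatoid body and RNA decay genes described here are 36 of the 25965 genes in the deposited expression table, chosen as the rows whose symbol equals 1 of 37 listed names. No row bears the symbol Henmt1, which was not analysed here. The cells were round spermatids, the haploid germ cells that follow meiosis, sorted by flow cytometry from testis of ICR mice. Heterozygous cells (Wfdc15a+/-, 2 libraries) served as the controls of cells labelled Wfdc15a-/- (2 libraries). Each library was amplified with Smart-seq2 and gave 1 value per gene in log2 RPM, where RPM is the gene's reads scaled to a fixed library total. No other allele, agent or age is named in the labels, and they do not say whether the libraries of a genotype came from separate animals. The p-values below therefore measure the spread between these libraries, which may be technical.

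PIWI-interacting RNAs (piRNAs) are small germline RNAs that guide PIWI proteins to transposon transcripts and other RNAs. In round spermatids PIWI proteins, Tudor domain proteins and RNA helicases gather in the chromatoid body, a dense perinuclear granule that also holds proteins of mRNA storage, decapping and nonsense-mediated decay (NMD), the pathway that removes transcripts with premature stop codons. Spermatids store many mRNAs for later translation, so their storage and decay are part of normal differentiation.

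No member gene passed the test between the genotypes, and most differed little. Of the 35 members tested, 25 (71.4%) differed by less than 0.5 on the log2 scale, against 63.5% of the 15888 genes tested. In 7 members (20.0%, against 23.5% of all genes tested) both knockout-labelled libraries lay above both heterozygous ones. These were Gtsf1l and Gtsf1, partners of PIWI proteins, the PIWI protein gene Piwil1, the Tudor gene Tdrd1, the decapping genes Edc4 and Dcp2, and Dgcr8 of microRNA processing. In 3 members (8.57%, against 15.0% of all genes) both lay below, namely the mRNA storage gene Ybx2, the decapping gene Dcp1a and the Tudor gene Tdrd7. With limma and Benjamini-Hochberg adjustment, 0 of the 35 members and 0 of all genes (0%) had an adjusted p under 0.05, and the smallest adjusted p of a member was 0.544. The same fit on reads recovered from the values (limma's voom) also gave 0 for the members. Since these are bulk samples, fewer cells of a type or stage and less RNA per cell cannot be told apart.

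A few facts of the libraries bear on these comparisons. The totals recovered from the steps of the values were 5774112 and 33853604 reads for heterozygous 1 and 2 and 21160061 and 11268909 reads for knockout 1 and 2, so heterozygous 1 was the shallowest. The targeted gene Wfdc15a was read at 121 and 85.2 RPM in heterozygous cells against 82.6 and 59.5 RPM in knockout-labelled cells. Its transcript was thus present in all 4, and the stretch of it that the allele lacks is not named in the labels. All 12 round spermatid markers had reads in every library, summing to 2924 to 4079 RPM, and 13 spermatocyte markers, mostly Ldhc by level, to 10430.2 to 11579 RPM. The 12 macrophage markers summed to 24.7 and 21.6 RPM in heterozygous cells, with 6 and 2 of them at 0 reads, and to 292 and 93.2 RPM in the knockout-labelled ones, where none was at 0. The sum of 7 Leydig cell markers was likewise higher (6.74 and 3.24 against 37.7 and 16.7 RPM). Insl3 rose most in it (0.693 and 0.650 against 20.0 and 7.54 RPM), whereas Hsd3b1, Cyp11a1 and Lhcgr overlapped between the genotypes. The sum of 10 Sertoli cell markers was also higher (21.6 and 43.5 against 65.0 and 59.4 RPM). Clu was its largest part (10.7 and 25.6 against 37.2 and 29.6 RPM), and of 8 tested, 5 had a log2 difference above 0 and 3 below. The 12 elongating spermatid markers summed to 6851 and 11797 against 7818 and 7548 RPM, and 7 of them were lower in both knockout-labelled libraries. The part of these cells in the differences below was not tested.

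Together the 36 members took 7713 and 6723 RPM in heterozygous 1 and 2 and 7264 and 7807 RPM in knockout 1 and 2, so the summed levels of the genotypes overlapped. Mael, Ddx25, Ddx4, Gtsf1, Tdrd6 and Tdrd7 held 79.4% and 79.0% of this sum in the heterozygous libraries and 78.5% and 78.1% in the knockout-labelled ones. Since a longer transcript yields more reads, levels were compared between genes as RPM per kb of exon. On that scale Mael stood first with 1109.6 ± 96.0 RPM per kb (mean ± SD over the 4 libraries), followed by Gtsf1 with 609 ± 65.9, Ddx4 with 322 ± 60.9, Gtsf1l with 254 ± 97.7 and Ddx25 with 146 ± 6.71. The ranges of Ddx4 and Gtsf1l overlapped, whereas those of Mael, Gtsf1 and Ddx4 did not, nor did those of Ddx25, Tdrd7 (115 ± 6.64), Tdrd6 (84.9 ± 5.80) and Xrn2 (52.3 ± 2.01). Lengths matter for this order. With the longest transcript in place of merged exons, Gtsf1 had a mean of 1034 RPM per kb, and its range of 917 to 1181 overlapped that of Mael, 1015 to 1225. Of the 35 pairs of neighbours in the order by merged exons, 26 had overlapping ranges. The lower end held Dcp2 with 0.514 ± 0.0534 RPM per kb, Dicer1 with 0.216 ± 0.160 and Piwil4 with 0.0742 ± 0.0855.

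**Figure D1:**
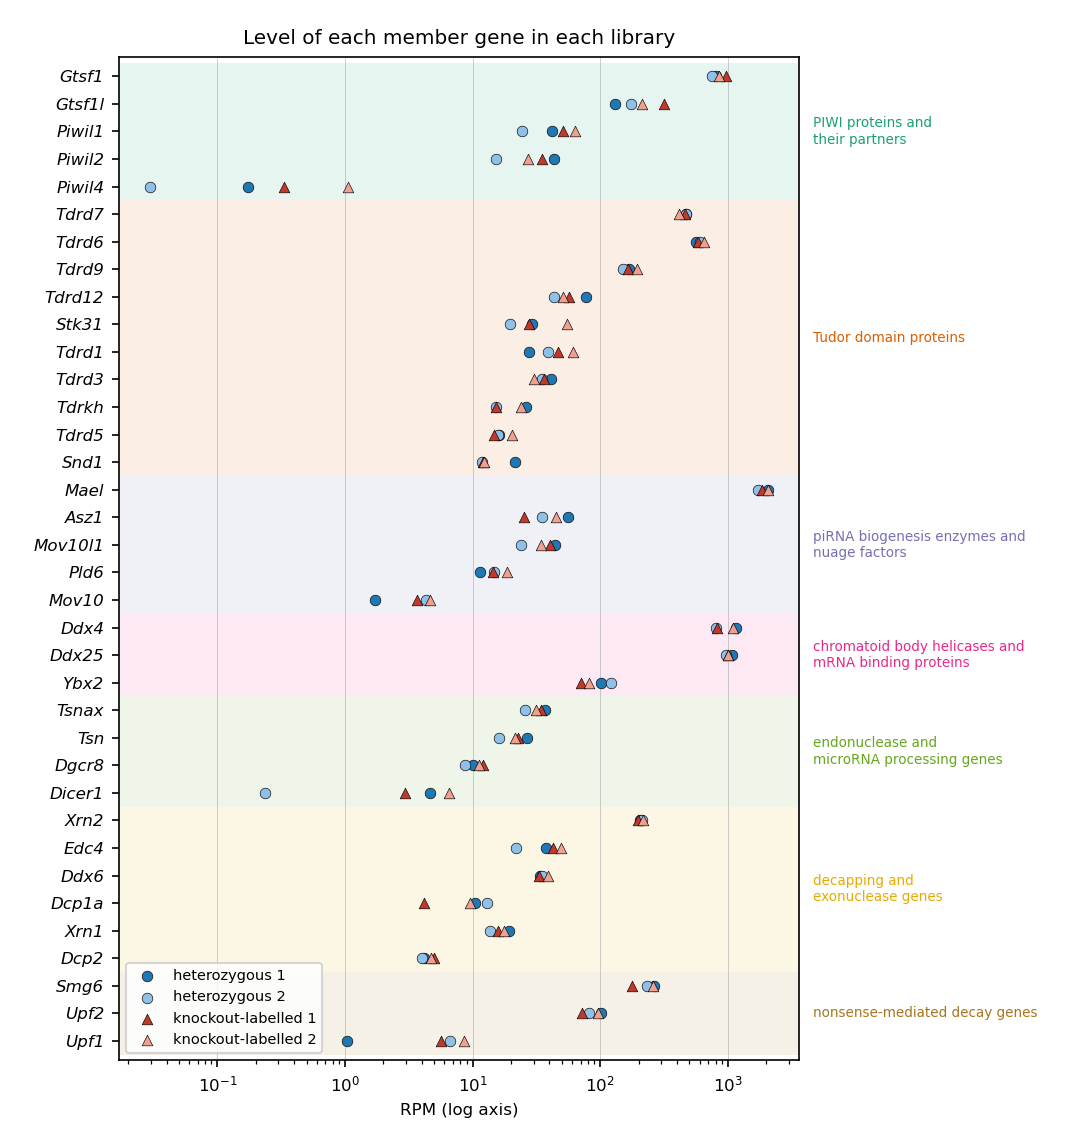
Level of each of the 36 member genes in RPM (log axis), 1 point per library (circles heterozygous, triangles knockout-labelled), grouped by role. Mael stands highest in every library, with 1716 to 2071 RPM, Piwil4 lies lowest, and the genotypes overlap in most genes.

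The stretches before the start sites of 4 members are shown, 3 that were higher and 1 that was lower in the knockout-labelled libraries, each with the smallest p of its direction. They are RefSeq sequence on GRCm38.p6, on the strand of the gene and without bases that lie in an exon. Capitals mark the CCAAT box (CCAAT or, on the other strand, ATTGG), a promoter element bound by the factor NF-Y.

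Gtsf1l, chr2:163089602-163089851, minus strand: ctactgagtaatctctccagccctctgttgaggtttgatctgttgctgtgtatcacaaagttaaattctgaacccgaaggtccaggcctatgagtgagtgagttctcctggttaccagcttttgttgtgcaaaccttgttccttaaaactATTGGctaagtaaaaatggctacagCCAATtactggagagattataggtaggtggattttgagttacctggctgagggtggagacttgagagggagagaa

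Piwil1, chr5:128736030-128736173, plus strand: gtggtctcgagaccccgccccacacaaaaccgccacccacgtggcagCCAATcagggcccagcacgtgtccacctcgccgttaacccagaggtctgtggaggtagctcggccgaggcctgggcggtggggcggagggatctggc

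Tdrd1, chr19:56825959-56826208, plus strand: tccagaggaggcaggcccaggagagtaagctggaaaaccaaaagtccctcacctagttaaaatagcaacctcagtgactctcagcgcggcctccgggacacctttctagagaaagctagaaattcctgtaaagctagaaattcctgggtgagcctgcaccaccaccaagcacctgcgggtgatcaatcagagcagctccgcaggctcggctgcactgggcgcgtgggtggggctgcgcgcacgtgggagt

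Ybx2, chr11:69935649-69935795, plus strand: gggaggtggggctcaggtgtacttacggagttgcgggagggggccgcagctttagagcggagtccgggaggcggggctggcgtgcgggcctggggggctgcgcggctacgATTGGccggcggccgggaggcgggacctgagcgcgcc

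The Gtsf1l stretch holds 2 CCAAT boxes, those of Piwil1 and Ybx2 hold 1 each, and that of Tdrd1 holds none. The RefSeq start used for Gtsf1l lies 1818 bases from the 5′ end of the interval given in the deposited table. Promoters of 31 members were matched in RefSeq. A gene was counted if the 250 bases before any of its starts held the letters, so genes with more starts had more windows. Searched on both strands, 15 of the 31 (48.4%) held CCAAT, against 37.5% of 27025 genes. The core of the MYB motif, CAACTG, was in 5 (16.1%) against 12.6% of all genes, Piwil1 among them at a place outside the stretch shown. The core of the cAMP response element, TGACG, was in 6 (19.4%) against 19.8%, Tdrd1 among them in a window of another of its start sites. These shares describe letters in a window and were not tested.

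The 4 tested genes of PIWI proteins and their partners had differences above 0, with a median of 0.53 on the log2 scale. In 3 of them (75%), against 23.5% of all genes tested, the knockout-labelled libraries lay above without overlap. This count over few genes was not tested. Gtsf1l, a germline paralog of Gtsf1 (mm10 chr2:163087038-163087783, minus strand), was read at 129 and 174 RPM in heterozygous 1 and 2 and at 317 and 214 RPM in knockout 1 and 2. Both knockout-labelled libraries lay above both heterozygous ones, by 1.75-fold in mean RPM. The log2 difference was 0.80 ± 0.26 (SE; 95% interval 0.21 to 1.38), with a p of 0.0123 from limma and an adjusted p of 0.544. Leaving out 1 library gave 0.58 (adjusted p 0.282) without heterozygous 1, 1.01 (adjusted p 0.0283) without heterozygous 2, and 0.51 and 1.08 (adjusted p 0.9992 and 0.9996) without knockout 1 and 2. In such fits the lone library left in a group is assumed to vary like those of the other group.

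Gtsf1 encodes a zinc finger protein that aids target cleavage by PIWI proteins (mm10 chr15:103402405-103430470, minus strand). It was read at 810.2 and 751 RPM in heterozygous cells against 967 and 858 RPM in knockout-labelled cells. It was higher in both of the latter by 1.17-fold, a log2 difference of 0.22 (95% interval -0.18 to 0.63) with an adjusted p of 0.785. Per kb, Gtsf1 stood 3.70 and 2.55 times above Gtsf1l in the heterozygous libraries and 1.80 and 2.37 times above it in the knockout-labelled ones. With the longest transcript of each gene these ratios were 6.29 and 4.33 against 3.06 and 4.03.

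Piwil1 (MIWI, mm10 chr5:128736246-128755474, plus strand) encodes the PIWI protein that binds pachytene piRNAs in spermatocytes and round spermatids. Its levels were 42.1 and 24.2 RPM in heterozygous 1 and 2 against 51.1 and 63.7 RPM in knockout 1 and 2. The latter were higher without overlap, by 1.73-fold in mean RPM. The log2 difference was 0.84 ± 0.33 (SE; 95% interval 0.10 to 1.58; limma p 0.0295, adjusted p 0.591). Without heterozygous 1 it was 1.24 (adjusted p 0.034), without heterozygous 2 it was 0.44 (adjusted p 0.503), and without knockout 1 or 2 it was 0.999 or 0.68 (adjusted p 0.9992 and 0.9996). Piwil2 (MILI), which acts earlier in the germline and in primary piRNA processing, was read at 43.5 and 15.1 RPM against 34.9 and 27.2 RPM, so its knockout-labelled values lay inside the heterozygous range. Per kb, Piwil1 exceeded Piwil2 in all 4 libraries, by 1.17 and 1.94 times in the heterozygous and 1.78 and 2.85 times in the knockout-labelled ones. Piwil4 (MIWI2), the nuclear PIWI protein of foetal prospermatogonia, had 1 read in each of the heterozygous libraries and 7 and 12 in the knockout-labelled ones. It did not reach the minimum of 1 RPM in 2 libraries and was not tested. Piwil4 also shares 137 bases of exon with Gm10706 on the opposite strand.

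Of the 10 Tudor domain genes, some of whose proteins bind methylated arginines of PIWI proteins, 5 lay above 0 and 5 below, with a median log2 difference of 0.02. Tdrd6 and Tdrd7, which the chromatoid body needs for its structure, held 71.8% and 76.5% of the summed RPM of this role in the heterozygous libraries and 73.6% and 70.5% in the knockout-labelled ones. Tdrd7, the highest Tudor gene per kb, was read at 473 and 468 RPM against 461 and 416 RPM. It was lower in both knockout-labelled libraries, but the log2 difference was -0.10 (95% interval -0.54 to 0.33; limma adjusted p 0.924). Tdrd6 lay at 559 and 604 against 581 and 654 RPM, overlapping ranges with a log2 difference of 0.09 (95% interval -0.34 to 0.51).

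Tdrd1, a partner of MILI in the granules of earlier germ cells (mm10 chr19:56826209-56870012, plus strand), was the Tudor gene with the smallest p. It was read at 27.7 and 39.2 RPM in heterozygous cells against 46.9 and 61.1 RPM in knockout-labelled cells. The groups did not overlap and differed 1.61-fold in mean RPM. The log2 difference was 0.70 ± 0.31 (SE; 95% interval 0.01 to 1.38; limma p 0.0464, adjusted p 0.609). Stk31, a Tudor protein with a kinase-like domain, had the largest log2 difference of this role, 0.71, but its values of 29.1 and 19.6 RPM against 27.6 and 55.0 RPM overlapped, and knockout 2 alone stood high. Snd1, a Tudor nuclease that is also found outside the germline, was the lowest of the role per kb of merged exon (1.47 RPM per kb, below Tdrkh with 3.27; 3.797 against 3.531 with the longest transcript) at 21.3 and 11.9 RPM against 12.0 and 12.2 RPM, where heterozygous 1 alone stood high. The other 5 Tudor genes (Tdrd3, Tdrd5, Tdrd9, Tdrd12 and Tdrkh) differed by -0.19 to 0.18 and overlapped.

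**Figure D2:**
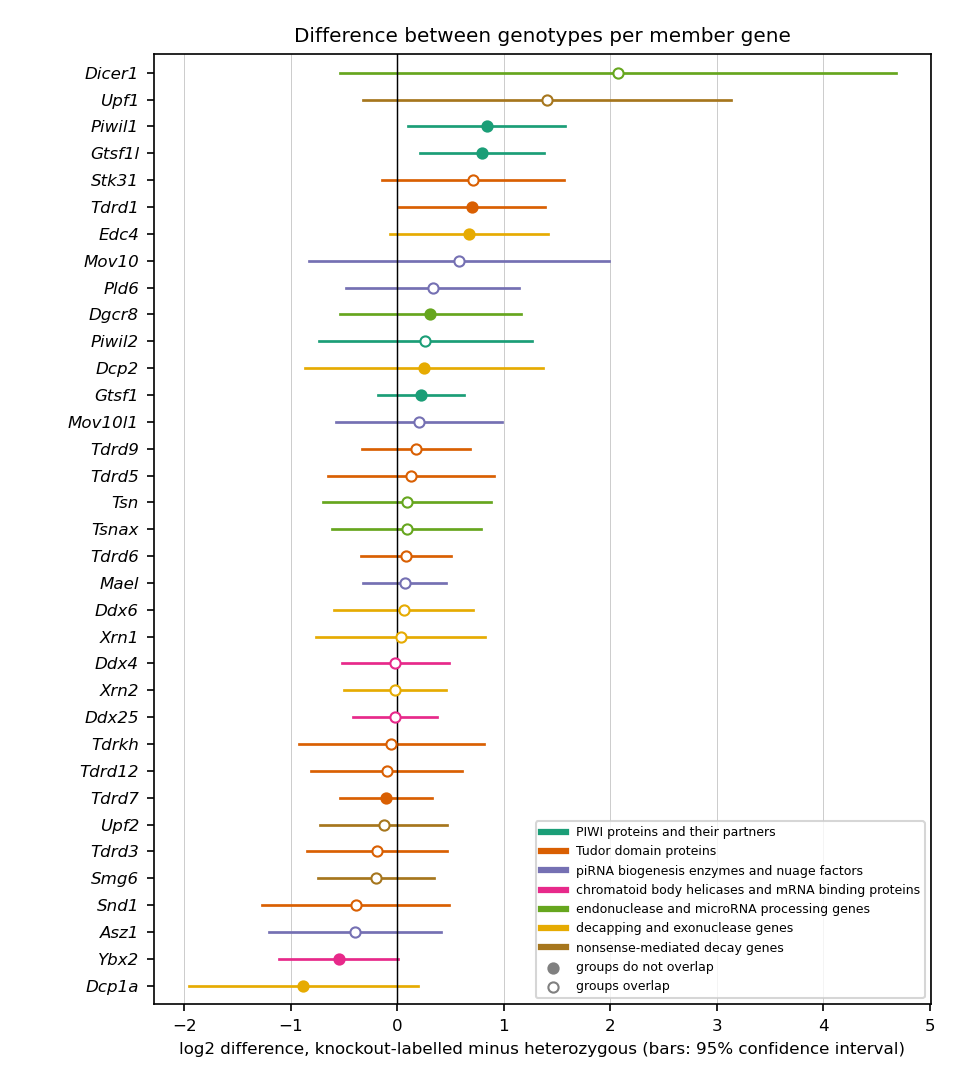
Log2 difference of each tested member gene, knockout-labelled minus heterozygous, with the 95% interval of limma (bars), in order of size and coloured by role, with filled points where the genotypes do not overlap. The intervals of Gtsf1l, Piwil1 and Tdrd1 lie above 0, and those of the highly read Mael, Ddx25, Gtsf1, Tdrd6 and Tdrd7 are narrow and include 0.

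Among the enzymes and nuage factors of piRNA biogenesis, no gene had groups that did not overlap. Mael (Maelstrom, mm10 chr1:166201385-166238744, minus strand), a nuage protein needed for transposon silencing, was read at 2043 and 1716 RPM in heterozygous 1 and 2 against 1862 and 2071 RPM in knockout 1 and 2. The ranges overlapped, with a log2 difference of 0.07 (95% interval -0.32 to 0.46; limma adjusted p 0.948). Its share of the summed RPM of all members was 26.5% and 25.5% against 25.6% and 26.5%. Mov10, the widely expressed relative of the piRNA helicase gene Mov10l1, was the lowest at 1.73 and 4.31 against 3.64 and 4.61 RPM, and heterozygous 1 alone stood low. Mov10l1, the mitochondrial nuclease gene Pld6 and the mitochondrial scaffold gene Asz1 differed by 0.20, 0.33 and -0.39 on the log2 scale and overlapped.

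Chromatoid body helicases and mRNA binding proteins included 2 of the most abundant members and the storage protein with the smallest p on the lower side. Ddx4 (mouse vasa homolog), the germ cell helicase that marks the chromatoid body, was read at 1159 and 802 RPM in heterozygous cells against 825 and 1098 RPM in knockout-labelled cells. Its log2 difference was -0.02 (95% interval -0.52 to 0.49). Ddx25, a helicase for export and translation of spermatid mRNAs, lay at 1079 and 968 against 1008 and 1001 RPM, with a log2 difference of -0.02 (95% interval -0.42 to 0.37). In both genes the knockout-labelled values lay inside the heterozygous range. Ybx2 (MSY2, mm10 chr11:69935796-69941605, plus strand), which binds and stabilises stored germ cell mRNAs, was read at 102 and 120.5 RPM against 70.4 and 81.6 RPM. Both knockout-labelled libraries were lower, and mean RPM was 1.46-fold higher in the heterozygous libraries. The log2 difference was -0.55 ± 0.25 (SE; 95% interval -1.11 to 0.01; limma p 0.0528, adjusted p 0.616).

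Endonuclease and microRNA processing genes were read at low levels. Tsnax (Trax), which forms with translin an RNA endonuclease, was the highest per kb at 36.9 and 25.9 against 34.5 and 31.2 RPM, with the knockout-labelled values inside the heterozygous range. Translin itself (Tsn) differed by 0.09 on the log2 scale and overlapped. Dicer1, the nuclease that cuts microRNA precursors, was the lowest, at 4.68 and 0.236 RPM in heterozygous 1 and 2 against 2.98 and 6.57 RPM in knockout 1 and 2. These values rest on 27, 8, 63 and 74 reads, and heterozygous 2 alone stood low. Its log2 difference of 2.07 (95% interval -0.54 to 4.68; limma adjusted p 0.667) became 4.23 with an adjusted p of 0.0055 without heterozygous 1, and -0.08 without heterozygous 2. Dgcr8, the partner of Drosha, was higher in both knockout-labelled libraries (10.0 and 8.77 against 12.1 and 11.3 RPM), and shares 825 bases of exon with Trmt2a on the opposite strand, from which reads without strand cannot be told apart.

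Of the 6 decapping and exonuclease genes, 2 were higher (33.3%, against 23.5% of all genes tested) and 1 lower (16.7%, against 15.0%) without overlap. Xrn2, the nuclear exonuclease, was the highest per kb, at 205 and 214 RPM against 198 and 215 RPM, so the heterozygous values lay inside the knockout-labelled range. Edc4, the scaffold of the decapping complex, was read at 37.8 and 21.8 RPM against 42.9 and 48.8 RPM, a log2 difference of 0.67 ± 0.34 (SE; 95% interval -0.07 to 1.42; limma adjusted p 0.628), and of 0.28 to 1.07 when 1 library was left out. It shares 458 bases of exon with Nrn1l on the same strand, so its value is uncertain where reads of both were counted. Dcp1a, a cofactor of decapping, was read at 10.4 and 13.0 RPM against 4.16 and 9.58 RPM. It was lower in both knockout-labelled libraries, with heterozygous mean RPM 1.70-fold higher. Its log2 difference was -0.88 ± 0.49 (SE; 95% interval -1.96 to 0.19; limma adjusted p 0.658), and ran from -1.48 to -0.28 when 1 library was left out. Dcp2, the catalytic subunit and the lowest per kb, lay at 4.16 and 4.02 against 5.01 and 4.70 RPM, slightly higher without overlap. The cytoplasmic exonuclease Xrn1 and the helicase Ddx6 differed by 0.03 and 0.06 and overlapped.

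The 3 NMD genes overlapped between the genotypes. Smg6, the endonuclease of the pathway, was the highest per kb at 264 and 232 RPM against 178 and 261 RPM, and knockout 1 alone stood low. It shares 126 bases of exon with Srr and 117 with Gm12333, both on the opposite strand. Upf1, the central helicase, was read at 1.04 and 6.68 RPM against 5.67 and 8.61 RPM, from 6, 226, 120 and 97 reads. It shares 63 bases of exon with Gdf1 and also overlaps Lass1, both on the opposite strand. Heterozygous 1 alone stood low, and the log2 difference of 1.41 (95% interval -0.32 to 3.14; limma adjusted p 0.658) depended on which heterozygous library was kept. It was 0.066 (adjusted p 0.981) without heterozygous 1, 2.75 (adjusted p 0.0194) without heterozygous 2 and 0.46 (adjusted p 0.845) with voom. Upf2, which activates Upf1, had a log2 difference of -0.13.

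As a group the members were centred where all genes were. On the higher side, 3 of the 35 members tested (Gtsf1l, Piwil1 and Tdrd1) had an unadjusted limma p under 0.05, against 6.21% of all genes. On the lower side it was 0 members against 1.87% of all genes. The count of 3 was 0 without a variance trend, 7 without the filter on low values, 6 without heterozygous 1 and 1 without knockout 2. Over all genes tested, the count in either direction moved from 1283 to 1384, 2086, 2060 and 643 in the same fits. The fit without the filter covered all 25965 genes rather than the 15888 tested, so its counts are out of more genes. Counts over all genes pool both directions (986 higher and 297 lower in the fit that gave 1283), whereas those of the members are of the higher side only. The members' median log2 difference was 0.09, against 0.07 over all genes, and their median size of difference was 0.20 against 0.34. They were also read more deeply, with a median level of 35.7 RPM against 12.7 RPM, and their median SE was 0.33 against 0.41.

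**Figure D3:**
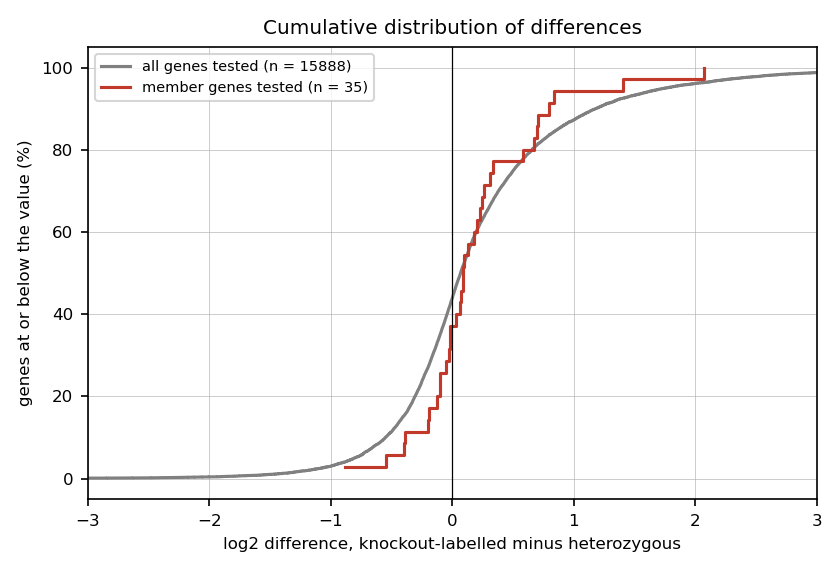
Cumulative share of genes (percent) at or below each log2 difference, knockout-labelled minus heterozygous, for the 35 tested members (red steps) and all 15888 genes tested (grey). Both curves pass 50% near 0, at medians of 0.09 and 0.07.

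The median size of the members' log2 gap was 0.43 between the heterozygous and 0.24 between the knockout-labelled libraries, against 0.49 and 0.36 over all genes tested. This spread had a pattern, noticed after the values were seen. In 12 of 35 members (34.3%) the highest values were those of heterozygous 1 and knockout 2, against 19.8% of all genes tested. They were Mael, Ddx4, Asz1, Stk31, Snd1, Tdrd5, Tdrd9, Tdrkh, Dicer1, Xrn1, Smg6 and Upf2. No member had its highest values in heterozygous 2 and knockout 1, against 18.0% of all genes. Of 13 spermatocyte markers, 7 (53.8%) were highest in heterozygous 1 and knockout 2, among them the synaptonemal complex genes Sycp1, Sycp2 and Sycp3. Other synaptonemal complex genes on the list differed, with Syce1 highest in heterozygous 2 and knockout 1 and Syce3 in heterozygous 1 and 2. Of 12 round spermatid markers, 9 (75.0%) were instead highest in heterozygous 2 and knockout 1. Heterozygous 1 and knockout 2 were also the libraries with the fewest reads, and the part of depth and of cell stage in the members' values was not tested.

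Other genes of these pathways, in 7 lists that hold no member, also gave 0 adjusted p under 0.05 with limma. Their counts without overlap stand against 23.5% higher and 15.0% lower of all genes tested. Of 20 tested other piRNA and chromatoid body genes, 6 were higher (30%) and 3 lower (15.0%) without overlap, with a median log2 difference of 0.24 and 3 and 1 at an unadjusted p under 0.05. Dnmt3l, a cofactor of de novo DNA methylation in the foetal germline, was lower at 13.2 and 13.5 against 6.76 and 4.26 RPM (log2 difference -1.31 ± 0.43 SE, adjusted p 0.544). Fkbp6, a co-chaperone in piRNA loading, was higher at 14.4 and 12.7 against 26.1 and 24.8 RPM (0.91 ± 0.33 SE, adjusted p 0.578). Of 13 Argonaute and microRNA genes, 2 were higher and 0 lower without overlap (median 0.04), and 0 had an unadjusted p under 0.05. The 2 were Xpo5, which exports microRNA precursors (71.4 and 93.2 against 115 and 104 RPM), and the nuclease gene Drosha (14.0 and 9.69 against 16.7 and 17.4 RPM).

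In the lists of RNA decay genes, genes lay on both sides of 0. Of 18 deadenylation genes, 3 were higher and 4 lower without overlap (median -0.14), and 1 of the lower ones, Cnot6l, had an unadjusted p under 0.05. The deadenylase genes Cnot6l, at 11.6 and 13.6 against 6.76 and 6.66 RPM, and Parn, at 22.7 and 30.2 against 38.4 and 45.2 RPM, went opposite ways. Of 13 other decapping genes, 3 were higher and 3 lower (median 0.00436), with 1 each way at an unadjusted p under 0.05. These were Nudt16, from 3 and 3 against 63 and 31 reads, and Lsm14a, at 31.9 and 17.5 against 10.5 and 14.2 RPM. Nudt16 reached the filter of 1 RPM only in the knockout-labelled libraries, so it could only count as higher without overlap. Of 19 exosome and ribosome rescue genes, 5 were higher and 0 lower (median 0.12). At an unadjusted limma p under 0.05 were the exosome subunit gene Exosc7 and the ribosome rescue gene Pelo. Exosc7 was read at 1.04 and 0.827 against 3.73 and 3.73 RPM, from 6, 28, 79 and 42 reads. Pelo lay at 0.693 and 0.857 against 2.32 and 4.53 RPM, from 4, 29, 49 and 51 reads. Like Nudt16, Pelo passed the filter only through the knockout-labelled libraries and could only count as higher. Of 17 other NMD genes, 2 were higher and 0 lower (median 0.04), and 1 had an unadjusted p under 0.05, Smg9, listed as 1500002O20Rik, at 27.7 and 24.7 against 53.6 and 38.9 RPM.

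Of 18 mRNA storage and translational control genes, 3 were higher and 3 lower without overlap (median 0.07), and 1 lower gene, Ybx1, had an unadjusted p under 0.05. Ybx1, the widely expressed relative of Ybx2, was read at 812 and 922 RPM in heterozygous cells against 620.0 and 606 RPM in knockout-labelled cells. Both knockout-labelled values lay below, like those of Ybx2, with a log2 difference of -0.50 ± 0.19 (SE; limma p 0.0222, adjusted p 0.585).

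**Figure D4:**
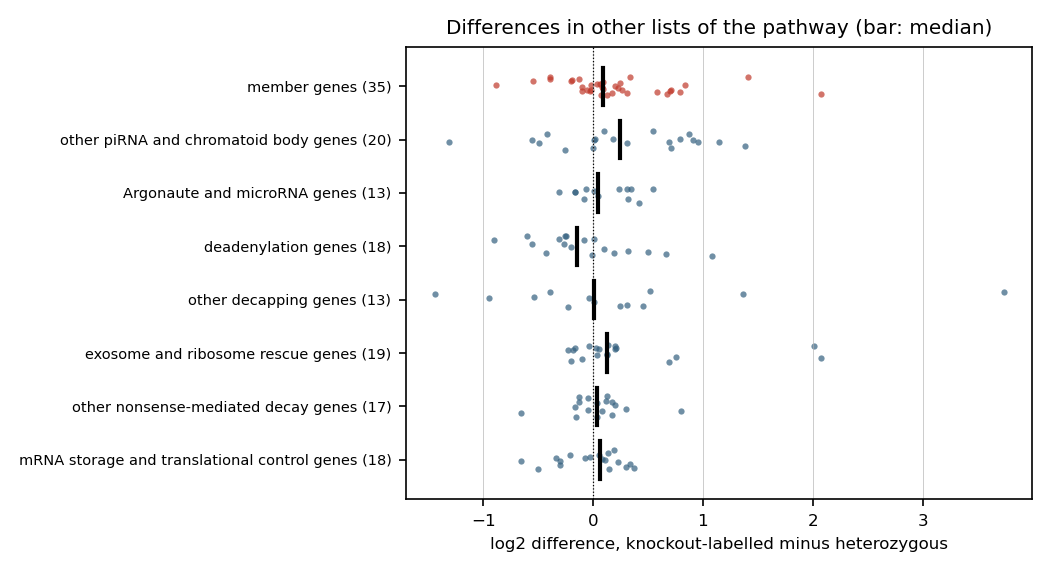
Log2 difference of each tested gene, knockout-labelled minus heterozygous (points), for the members (red, top) and 7 lists of other genes of these pathways (blue), with a bar at each list's median. The medians of the 7 lists lie between -0.14 for deadenylation genes and 0.24 for other piRNA and chromatoid body genes, and genes lie on both sides of 0 in every list.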

How the data were processed

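Per the labels' protocols, sorted cells were lysed, amplified with 15 cycles of PCR and tagmented, without a record of strand or of single molecules. The submitters' processing notes name HISAT2 2.1.0, Trim Galore 0.6.6, FastQC 0.11.8 and the build mm10. Details not given in the sources used here are the counting tool, the annotation and the filters. The authors deposited log2 RPM values with no adjustment for gene length. Their steps gave whole reads for 99.7% to 100.0% of values per library (within 0.01 of a read), a gene with 0 reads sits at 0.9 of a read, and 1 read was worth 0.173, 0.0295, 0.0473 and 0.0887 RPM in heterozygous 1 and 2 and knockout 1 and 2. The smallest level told from 0, 3 reads, was 0.520, 0.0886, 0.142 and 0.266 RPM, counting error only.

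Genes at 1 RPM or more in 2 libraries (15888) went into a limma fit (3.58.1, R 4.3.3) of the deposited log2 values, with a variance trend, two-sided, unpaired, and Benjamini-Hochberg adjustment over all of them. Lengths for RPM per kb are merged GENCODE M21 exons, with which all 36 members were matched. Levels by the longest transcript are given where they change an order, and moved 1 member by more than 3 places. Python 3.11.15, pandas 2.3.3, numpy 2.4.6 and matplotlib 3.10.9 were used. The code was tested on simulated reads with known differences, which does not show its power at the differences reported here. Alternatives were 2 scalings, a pseudocount of 1 RPM, no filter, a filter of 5 RPM, no variance trend, leaving out each library, limma's voom on recovered reads and a replicate block.

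Members and lists were chosen with earlier results of these data known. Genes named with each library's value are members at an unadjusted p under 0.05, those without overlap that differ by 0.5 or more on the log2 scale, the highest and lowest per kb of each role, and up to 2 of each pathway list with the smallest p. Tdrd6, Stk31, Piwil2, Ddx25, and Dgcr8 were given after their values were seen, as were ratios between genes and the counts of the highest libraries. Of the pathway symbols 107 matched as written, 14 by an older symbol and 3 not. All 7 marker lists matched in full, and the spermatogonial one summed to 68.1 and 57.4 against 100.3 and 85.5 RPM.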

Additional observations from a re-analysis of the deposited data

How the results depend on the processing

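Of the 35 members tested, 15 kept their direction under all 12 alternatives and 20 turned under at least 1. Member calls at an adjusted p under 0.05 stayed at 0 outside the fits that leave out a library, where they ranged from 0 to 2 (Piwil1 and Dicer1 without heterozygous 1, Gtsf1l and Upf1 without heterozygous 2). Over all genes tested the calls were 1 with log2(RPM + 1), 180 without the filter and 0 to 558 when a library was left out (442 without heterozygous 1, 558 without heterozygous 2, 5 without knockout 2). In those fits the lone library was assumed to vary like the other group, and the cause of the change was not tested. The fit without the filter covered all 25965 genes. The members' median ranged from -0.081 to 0.25 (without heterozygous 2 and without heterozygous 1). The lists ranged from 0 to 2 (other piRNA and chromatoid body genes, deadenylation genes) and from 0 to 1 (other decapping genes, mRNA storage genes). Deviations of same-numbered libraries from their group means correlated at -0.076. With 2 libraries per group this is a single contrast, which cannot decide whether the libraries were paired. A replicate block gave 66 calls over all genes and 0 among the members.

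With voom, Ddx4 was at 0.030, Tdrd12 at 0.043 and Tdrkh at 0.059. With median-ratio scaling Ddx6 was at -0.000583 and Xrn1 at -0.026, and with quantile normalization Xrn1 was at -0.053 and Dcp2 at -0.017. Leaving out a library gave log2 differences of -0.057 to 0.195 for Mael, -0.28 to 0.25 for Ddx4, -0.10 to 0.053 for Ddx25, -0.079 to 0.038 for Xrn2, -0.47 to 0.077 for Smg6, -0.33 to 0.081 for Upf2, -0.81 to 0.019 for Asz1, -0.52 to 0.32 for Tdrd12, -0.25 to 0.65 for Mov10l1 and -0.17 to 0.34 for Tsnax. They were -0.50 to 1.03 for Piwil2, -0.062 to 0.18 for Ddx6, -0.44 to 0.33 for Tdrkh, -0.10 to 0.36 for Tdrd5, -0.27 to 0.45 for Tsn, -0.81 to 0.030 for Snd1, -0.22 to 0.29 for Xrn1, -0.074 to 1.24 for Mov10 and -0.081 to 4.23 for Dicer1. Dicer1, Upf1, Mov10 and Piwil4 rest on few reads in at least 1 library, for Dicer1 the 8 reads of heterozygous 2, the deepest.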
